A study of Mus musculus with 2 samples.

Results

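The genes of 9 hormone-regulated nuclear receptors were examined in the open chromatin map of LβT2 cells. They were the estrogen receptors (Esr1 and Esr2), the progesterone receptor (Pgr), the glucocorticoid and mineralocorticoid receptors (Nr3c1 and Nr3c2), the thyroid hormone receptors (Thra and Thrb) and a pair of retinoid X receptors (Rxra and Rxrg). They were taken from a given list of names, among 21951 protein-coding genes of the GENCODE vM21 annotation of the mouse genome (GRCm38). Each peak was assigned to a receptor when its summit, the position of highest signal, lay in the gene or within 50 kb of either end. By this rule 68 of the 58519 peaks of replicate 1 and 72 of the 64984 peaks of replicate 2 belonged to the receptor loci.

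LβT2 is an immortalized mouse gonadotrope line, obtained from a pituitary tumor that was induced in a transgenic mouse with a gonadotropin promoter driving a viral T antigen. Both samples were passage 21 cells that received 2 nM GnRH in pulses every 2 h for 6 h 45 min, which made 4 pulses, with harvest 45 min after the last. Accessibility was measured by ATAC-seq, in which a transposase cuts and tags open DNA, and peaks had been called in each replicate on its own. Samples without GnRH were not analysed here, so all values refer to 1 condition (n = 2). The study describes the samples and libraries as independent, without saying whether they came from separate cultures.

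Nuclear receptors are transcription factors that are switched by small lipid-soluble hormones. Steroid receptors bind DNA mostly as pairs of the same protein on inverted repeats of a short half-site, whereas thyroid hormone receptors usually bind direct repeats together with a retinoid X receptor. In the gonadotrope, estradiol, progesterone and glucocorticoids feed back on gonadotropin synthesis through these proteins. Thrb gives a long-known pair of proteins from separate promoters, β1, which is found widely, and β2, which is best known from the pituitary, the hypothalamus and the retina.

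Each peak is described below by the −log10 of its q-value, by its fold enrichment over the background, and by the number of sequencing tags at its summit. The tags were solved from the deposited fold and p-value. All peaks of a list shared 1 background level, 3.05 tags in replicate 1 and 3.54 in replicate 2. The weakest peak of each list held 10 and 11 tags, and the median peak 14 and 16. An interval given for a tag number is the exact Poisson 95% interval and covers counting error only. The labelled cell type was checked at the genes of the gonadotropin α subunit (Cga), the LH β subunit (Lhb) and the GnRH receptor (Gnrhr). Their promoters held peaks with a −log10 q of 11.95, 37.6 and 9.36 in replicate 1 and of 36.03, 60.5 and 18.03 in replicate 2. Of 9 gonadotrope genes, 5 had a promoter peak in replicate 1 and 7 in replicate 2, against 32.3% and 44.4% of all protein-coding genes. The FSH β subunit gene Fshb and Pitx1 had none in either replicate, and Nr5a1 and Foxl2 had none in replicate 1. Of 6 genes of other pituitary cell types none had one in either, which at this depth does not show that they were closed.

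A promoter peak was a summit within 1 kb of any annotated transcription start site (TSS) of the gene. Such a peak was found for 2 of the 9 receptors in replicate 1 and for 5 in replicate 2, against 32.3% and 44.4% of all protein-coding genes. In both replicates it was found for Esr1 and Thrb, 2 of 9, against 30.8% of all protein-coding genes. Thrb was the single receptor with peaks at the start of full-length coding transcripts in both lists. The Esr1 peak lay at the start of a transcript annotated as non-coding. The Nr3c1, Rxra and Rxrg peaks were in the list of replicate 2 alone. The shares of the receptors were 22.2% in replicate 1, 55.6% in replicate 2 and 22.2% in both, and with 9 genes such shares are coarse. Among the 15208 genes with 2 to 9 distinct TSSs, the range of the receptors, 34.7% had a promoter peak in replicate 1 and 48.0% in replicate 2.

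The loci were very unequal in the number of peaks. Thrb held 46 of the 68 peaks of replicate 1 and 48 of the 72 of replicate 2, mostly in introns. Thrb lies in a region of chromosome 14 where peaks are dense far beyond the gene, whose values are given with the density of each locus. The other 8 loci together held 22 and 24 peaks. Esr1 held 9 and 6, Nr3c2 6 and 4, Thra 4 and 5, Esr2 2 and 2, and Pgr 1 and 1. No peak was called in the loci of Nr3c1, Rxra and Rxrg in replicate 1, and 2, 1 and 3 were called in replicate 2. Over all 9 loci, 50 summits of replicate 1 and 50 of replicate 2 were intronic, 4 and 9 lay in promoters, 13 and 12 beyond the ends of the gene, and 1 and 1 in an exon outside the promoter window. Summing the 9 loci, a mean of 70.0 ± 2.83 peaks (SD, n = 2) was called.

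**Figure D1:**
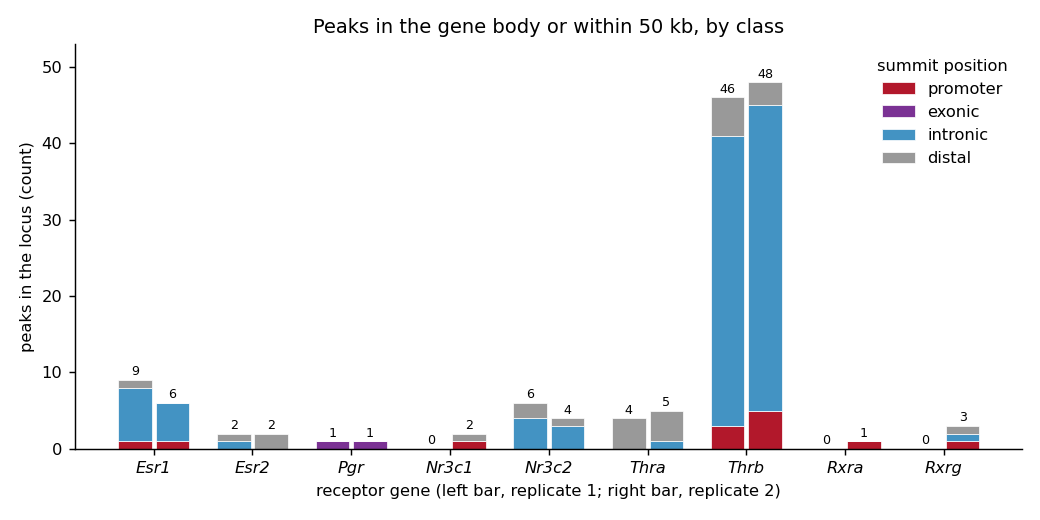
Number of peaks in each receptor locus (vertical axis, count) by the position of the summit, for replicate 1 (left bar) and replicate 2 (right bar) of each gene. Thrb reached 46 and 48 peaks, and no other locus passed 9.

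Of the member peaks, 42 of 68 in replicate 1 (61.8%) and 40 of 72 in replicate 2 (55.6%) overlapped a peak of the other replicate by at least 1 bp, a mean of 58.7 ± 4.39% (SD, n = 2). Over all peaks the shares were 59.1% and 51.6%. Without Thrb they were 54.5% and 45.8%. The sequence at the summit also differed between loci. The 50 bp at the summit occurred at a single place of the genome for 47 of 68 member peaks in replicate 1 and 54 of 72 in replicate 2 (69.1% and 75.0%), against 33.1% and 38.8% of all peaks. At Thrb this held for 39 of 46 and 40 of 48, and at the other 8 loci for 8 of 22 and 14 of 24. Reads from repeated sequence can belong to other copies.

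The estrogen receptor α gene Esr1 (chromosome 10, 4611593 to 5005614, plus strand) spans 394 kb and has 9 distinct TSSs. No summit lay within 1 kb of the starts of its 4 protein-coding transcripts in either replicate. The nearest summit to the start of Esr1-204 was 15.5 kb upstream in replicate 1 and 81.0 kb upstream in replicate 2. The promoter peak in both lists lay in intron 5, 325 kb from the first TSS, at the non-coding transcript Esr1-208. It held 12 tags (6.20 to 21.0) in replicate 1 and 16 (9.15 to 26.0) in replicate 2, for which −log10 q was 2.31 and 4.19. Its fold enrichment was 3.48 ± 0.381 (SD, n = 2). Among the genes with a promoter peak its percentile was 6.15 in replicate 1 and 12.1 in replicate 2, so it was among the weaker ones. The summits were 141 bp apart. The 50 bp at the summit occurred once in the genome in replicate 1 and at 15 places in replicate 2.

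Most other Esr1 peaks were intronic and lay on repeated sequence. The highest intronic peak of replicate 1 was 177.3 kb into the gene, in intron 4, with 20 tags and a −log10 q of 7.74. The overlapping peak of replicate 2 held 15 tags, and its −log10 q was 3.57. The highest of replicate 2 lay 300.7 kb into the gene, in intron 5, with 20 tags, and its partner in replicate 1 held 19, so both peaks had a −log10 q of 6.93 or 6.97. These summits were 6 bp apart. The only distal peak lay 15.2 kb upstream in replicate 1, with 14 tags, on a sequence with 517 copies. Of the 9 and 6 Esr1 peaks, 2 and 2 had a single-copy summit, and 3 in each replicate were shared.

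The Esr1 promoter window of replicate 2 and the shared window in intron 5 are shown here because they differ in how often their sequence recurs. Capitals mark the 50 bases that were counted, which occur at 15 places for the first and, in replicate 1, at 53 for the second. At the summit of replicate 2, 6 bp from it, the 50 bases of the second occur at 2573 places. Both are given on the plus strand of GRCm38.
Esr1-208 promoter peak, chr10:4936902-4937102: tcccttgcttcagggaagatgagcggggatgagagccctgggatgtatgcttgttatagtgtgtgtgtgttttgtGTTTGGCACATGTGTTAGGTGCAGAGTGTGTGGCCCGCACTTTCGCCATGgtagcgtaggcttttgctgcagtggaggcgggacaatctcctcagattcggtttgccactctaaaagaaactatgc
Esr1 intron 5 peak, chr10:4912247-4912447: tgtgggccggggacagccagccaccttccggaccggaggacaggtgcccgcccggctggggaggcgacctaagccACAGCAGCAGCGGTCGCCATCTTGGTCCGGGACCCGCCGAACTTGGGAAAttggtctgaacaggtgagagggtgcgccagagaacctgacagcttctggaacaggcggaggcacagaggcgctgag
The intron 5 window held 66.7% G and C and the promoter window 51.2%.

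The estrogen receptor β gene Esr2 (chromosome 12, 76120419 to 76177259, minus strand) had no promoter peak in either list. The single intronic peak, in intron 7 of replicate 1, held 12 tags with a −log10 q of 2.31. The distal peaks lay upstream, on sequence with 2 copies in replicate 1 and 2 or 6 in replicate 2. The highest of replicate 2 was 3.05 kb from the TSS with 19 tags and a −log10 q of 6.21, and replicate 1 had no peak there. A peak 12.54 kb upstream in replicate 1, with 13 tags and a −log10 q of 2.88, overlapped one of replicate 2 with 17 tags and a −log10 q of 4.84. The summits of this pair were 388 bp apart.

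The progesterone receptor gene Pgr (chromosome 9, 8899833 to 8968611, plus strand) held 1 peak in each replicate, and these overlapped. The summit lay in exon 1, 1087 bp from the start of Pgr-202 in replicate 1 and 1157 bp in replicate 2, so it fell just outside the promoter window. It held 15 tags (8.40 to 24.7) and 19 tags (11.4 to 29.7). Its −log10 q was 4.13 in replicate 1 and 6.21 in replicate 2, and it was enriched 4.18 ± 0.325-fold (SD, n = 2). The summit sequence was single-copy in both. No intronic or distal peak was called in the Pgr locus, although the 2 Mb on either side held 2.65 and 3 peaks per 100 kb, against 0.592 in the locus in both replicates.

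The corticosteroid receptors had few peaks. The mineralocorticoid receptor gene Nr3c2 (chromosome 8, 76899442 to 77245012, plus strand) held 6 and 4 peaks, and no promoter peak. Each of its 10 summits lay on repeated sequence, with 2 to 10569 copies in replicate 1 and 330 to 8288 in replicate 2. The highest intronic peak was in intron 2 in both, with 14 tags and a −log10 q of 3.49 in replicate 1 and 18 tags and 5.51 in replicate 2. It was 1 of a group of intron 2 peaks between 238.1 and 241.9 kb from the first TSS, of which 4 were called in replicate 1 and 2 in replicate 2. The highest distal peak lay 46.6 kb upstream in replicate 1 and 46.8 kb in replicate 2, with 18 and 16 tags. One pair in intron 2 had summits 5 bp apart, with 11 and 13 tags. Its window is shown as an example of an Nr3c2 peak on a sequence that occurs at 330 places in the genome (capitals, 50 bases).
Nr3c2 intron 2 peak, plus strand of GRCm38, chr8:77138468-77138668: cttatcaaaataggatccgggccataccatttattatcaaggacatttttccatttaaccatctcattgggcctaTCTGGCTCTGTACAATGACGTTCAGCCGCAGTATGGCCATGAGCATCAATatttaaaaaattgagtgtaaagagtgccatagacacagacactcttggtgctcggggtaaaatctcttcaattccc

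The glucocorticoid receptor gene Nr3c1 (chromosome 18, 39410545 to 39519421, minus strand) had no peak in replicate 1. In replicate 2 a promoter peak of 24 tags (15.4 to 35.7) and −log10 q 10.02 lay 413 bp upstream of the start of Nr3c1-205, on single-copy sequence. This peak ranked at the 41.6th percentile of the genes with a promoter peak in that list. Of the 9 Nr3c1 TSSs, those of Nr3c1-205 and Nr3c1-207 had the summit within 1 kb, and the start of Nr3c1-203 was 1.04 kb away. The starts of 3 further protein-coding transcripts followed at 1.83, 1.87 and 2.43 kb. A distal peak 39.5 kb upstream of the first TSS held 17 tags.

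The thyroid hormone receptor α gene Thra (chromosome 11, 98740638 to 98769006, plus strand) had no promoter peak in either replicate. Its 8 TSSs were closest to a summit at Thra-203, where an intronic peak of replicate 2 lay 1463 bp downstream with 19 tags and a −log10 q of 6.21. The other peaks all lay beyond the 3′ end. The highest of them was 33.4 kb from the first TSS in replicate 1 and 33.5 kb in replicate 2, with 20 tags (12.2 to 30.9) and 30 tags (20.2 to 42.8) and a −log10 q of 7.74 and 15.2. It was the strongest peak outside Thrb in both lists, together with an equal intronic Esr1 peak in replicate 1. A second shared pair held 14 and 22 tags within 1 kb of the TSS of Nr1d1, the gene of the circadian repressor REV-ERBα. The 3′ end of Nr1d1 (98767932 to 98775333) overlaps that of Thra on the opposite strand. The summits of the highest pair also lay within Nr1d1, more than 1 kb from its TSSs. A further shared pair held 12 and 22 tags and lay within 1 kb of TSSs of Casc3 and the non-coding Gm12359. All Thra summits were single-copy.

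The thyroid hormone receptor β gene Thrb (chromosome 14, 17660261 to 18038090, plus strand) spans 377.8 kb and has 6 distinct TSSs in 3 places. The first group, at the 5′ end, includes Thrb-203, which encodes the β1 protein of 461 residues. Thrb-207 starts 302.6 kb further on. Thrb-202 starts 321.3 kb from the first TSS and encodes the β2 protein of 475 residues. All 6 TSSs had a summit within 1 kb in both replicates. The strongest promoter peak lay 111 bp upstream of the β1 start in replicate 1 and 80 bp upstream in replicate 2. It held 35 tags (24.4 to 48.7) and 53 tags (39.7 to 69.3). Its −log10 q was 21.7 in replicate 1 and 39.5 in replicate 2, and it was enriched 10.4 ± 2.13-fold (SD, n = 2). It stood at the 90.2nd percentile of the genes with a promoter peak in replicate 1 and at the 89.0th in replicate 2.

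Another strong pair lay near the first TSS, 1038 bp upstream in replicate 1 and 987 bp upstream in replicate 2, so that it counted as promoter in replicate 2 only. It held 27 and 41 tags, with a −log10 q of 13.8 and 26.1. Both windows are shown since they are the strongest at the 5′ end. In the first, capitals mark matches to the GC box (GGGCGG) and to the receptor half-site (AGGTCA). In the second, which is centered on the summit of replicate 2, none of the searched patterns was found, which says only that these letters are not in this window. The window of replicate 1, with its summit 51 bp away, held a match to the pattern of the insulator protein CTCF. It was the only such match in the receptor loci, 1 of 68 windows in replicate 1 and 0 of 72 in replicate 2, and 0.364% and 0.523% of all windows held one.
Thrb β1 promoter peak, plus strand of GRCm38, chr14:17660716-17660916: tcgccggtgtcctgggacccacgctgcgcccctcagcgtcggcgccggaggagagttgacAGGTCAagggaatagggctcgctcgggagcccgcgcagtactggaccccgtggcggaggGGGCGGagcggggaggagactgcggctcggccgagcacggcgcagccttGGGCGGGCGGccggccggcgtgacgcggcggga
Thrb upstream peak, plus strand of GRCm38, chr14:17659174-17659374: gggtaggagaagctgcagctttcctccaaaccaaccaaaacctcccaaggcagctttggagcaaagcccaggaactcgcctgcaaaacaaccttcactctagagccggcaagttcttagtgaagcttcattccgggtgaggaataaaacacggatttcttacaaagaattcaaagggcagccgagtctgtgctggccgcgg
The promoter window held 76.1% G and C, 3 matches to the GC box, 2 of them overlapping, and 1 half-site.

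The strongest Thrb peak of both lists was intronic. It lay in intron 2, 199.6 kb from the first TSS and 103 kb from the nearest one, with 42 tags (30.3 to 56.8) in replicate 1 and 70 tags (54.6 to 88.4) in replicate 2. Its −log10 q was 29.4 and 60.5, and its enrichment was 13.1 ± 3.56-fold (SD, n = 2). It ranked at the 98.7th and 99.0th percentile of all peaks of its list. The exact binomial test of its tags gave p = 0.0714 and an adjusted p of 0.755 between the replicates. At the summit of replicate 2, a sequence recurs every 51 bp. In the window of that replicate, 75.3% of bases equalled the base 51 bp on. This value was reached by 3.08% of all summit windows for some spacing from 20 to 100 bp. In the window of replicate 1 the share was 52%, which 5.46% of all windows reached. Of the windows in the receptor loci, 7 in replicate 1 and 6 in replicate 2 reached the value of their replicate. The repeated stretch covered 226 bp of the peak of 1199 bp, from 17859644 to 17859869, where each unit matched the next at 80% of bases or more. The summit of replicate 1, at 17859870, lay just past this stretch. The 50 bp at the summit of each replicate occurred once in the genome. Capitals in the window mark the pentamer CCAAT, which stands in 2 of the units shown.
Thrb intron 2 peak, plus strand of GRCm38, chr14:17859709-17859909: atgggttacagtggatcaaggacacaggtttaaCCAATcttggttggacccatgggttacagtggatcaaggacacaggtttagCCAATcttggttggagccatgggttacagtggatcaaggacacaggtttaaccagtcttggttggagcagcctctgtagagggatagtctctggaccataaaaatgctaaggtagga

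Thrb peaks were not spread evenly along the gene. The stretch from 10 kb before the start of Thrb-207 to 10 kb past that of the β2 transcript Thrb-202 had 15 peaks in replicate 1 and 16 in replicate 2, or 38.8 and 41.3 per 100 kb. From 2 kb past the first TSS to this stretch there were 20 and 25 peaks, or 6.88 and 8.60 per 100 kb. These limits were drawn after the values were seen, so the contrast is a description. In this stretch of 38.7 kb, 11 peaks of each replicate overlapped one of the other. The highest lay 315.7 kb from the first TSS in intron 4, 5.53 kb upstream of the β2 start in replicate 1 and 5.51 kb in replicate 2, with 29 and 46 tags and a −log10 q of 15.7 and 31.5. Another pair, 8.75 kb upstream of the β2 start in replicate 1 and 9.19 kb in replicate 2, held 23 and 38 tags. Past this stretch, a shared pair of 13 and 15 tags in intron 7 lay within 1 kb of the start of Gm48321, a gene on the opposite strand.

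At the β2 start itself, replicate 2 had 1 wide peak from 17980251 to 17982581 that spanned the TSS, with its summit 997 bp upstream, 33 tags and a −log10 q of 18.03. Replicate 1 had a pair of peaks there, with summits on either side of the TSS, and the second of them, from 17981291 to 17982522, also covered it. The upstream summit was 1034 bp from the TSS with 22 tags and a −log10 q of 9.36, and the downstream summit 889 bp from it with 21 tags and a −log10 q of 8.54. At Thrb-207, the shared peak in exon 4 of a β1 transcript held 16 and 18 tags, with a −log10 q of 4.80 and 5.51. In replicate 1 the higher peak of the pair at the β2 start fell outside the promoter window, and the other held 21 tags. The higher peak near the β2 start held fewer tags than the β1 promoter peak in each replicate, 22 against 35 and 33 against 53. The intervals were 13.8 to 33.3 against 24.4 to 48.7 in replicate 1. In replicate 2 they were 22.7 to 46.3 against 39.7 to 69.3. Whether these intervals overlap is not a test, and the difference was not tested.

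**Figure D2:**
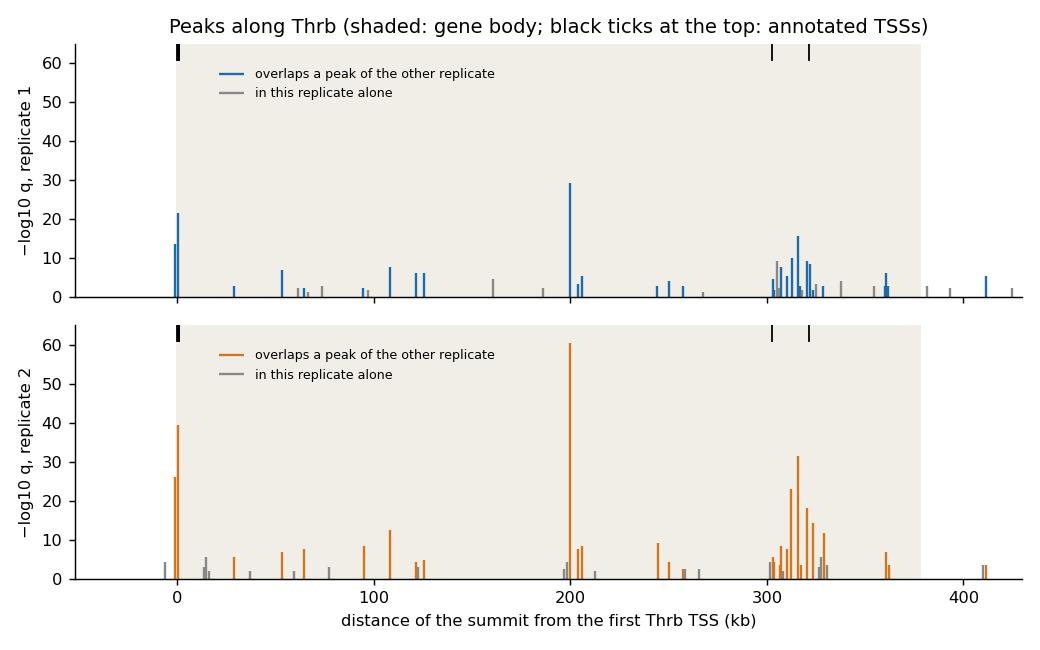
Peaks along Thrb, with the distance of the summit from the first TSS in kb on the horizontal axis and −log10 q on the vertical axis, for replicate 1 (top) and replicate 2 (bottom). Colored lines are peaks that overlap one of the other replicate and grey lines are peaks of 1 replicate, and the tallest lines stand at the 5′ end, at 199.6 kb (29.4 and 60.5) and at 315.7 kb (15.7 and 31.5).

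The windows of the 3 further Thrb peaks that the text turns on are shown for their positions and matches. In the first, 108.1 kb from the first TSS, capitals mark the pattern CAAGGTCA that is bound by steroidogenic factor 1 (SF1), a further half-site AGGTCA and CCAAT (as ATTGG on this strand). In the second, the highest peak upstream of the β2 start, they mark CCAAT. In the third, the peak at the β2 start, they mark a steroid response element (G, any base, ACA, 3 bases of any kind, TGT, any base, C), the PITX pattern TAATCC and the half-site on the minus strand. All are on the plus strand of GRCm38.
Thrb intron 1 peak, chr14:17768245-17768445: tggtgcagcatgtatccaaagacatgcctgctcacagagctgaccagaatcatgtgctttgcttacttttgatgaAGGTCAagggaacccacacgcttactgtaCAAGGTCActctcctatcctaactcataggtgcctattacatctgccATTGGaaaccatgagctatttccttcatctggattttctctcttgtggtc
Thrb intron 4 peak, chr14:17975921-17976121: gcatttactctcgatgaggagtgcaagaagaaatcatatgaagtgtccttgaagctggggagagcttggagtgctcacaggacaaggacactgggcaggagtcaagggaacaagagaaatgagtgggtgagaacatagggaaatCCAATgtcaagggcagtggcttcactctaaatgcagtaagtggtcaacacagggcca
Thrb β2 start peak, chr14:17980432-17980632: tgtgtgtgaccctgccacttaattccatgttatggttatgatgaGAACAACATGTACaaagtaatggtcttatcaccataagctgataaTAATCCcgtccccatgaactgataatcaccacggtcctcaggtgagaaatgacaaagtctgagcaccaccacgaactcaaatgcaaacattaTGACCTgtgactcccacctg
The intron 1 peak held 20 tags in replicate 1 and 27 in replicate 2, with summits 6 bp apart and a −log10 q of 7.74 and 12.55.

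The density of peaks in the Thrb locus was matched by its surroundings. The locus held 9.63 peaks per 100 kb in replicate 1 and 10.0 in replicate 2, and the 2 Mb on either side held 11.7 and 11.3. The ratio of locus to surroundings was 0.825 and 0.887. The megabases that hold Thrb had 81 to 86 peaks in replicate 1 and 84 to 108 in replicate 2, against a genome median of 17 and 20 and a 95th percentile of 43 and 44. Of 63 other protein-coding genes within 5 Mb of Thrb, 47 had a promoter peak in replicate 1 and 52 in replicate 2 (74.6% and 82.5%). Of these, 14 and 17 had a peak as strong as that of Thrb or stronger. Within 2 Mb there were 16 such genes, of which 12 had a promoter peak in replicate 1 and 15 in replicate 2. Of these, 6 and 7 were at or above Thrb. The median −log10 q of their promoter peaks was 25.5 in replicate 1, where Thrb had 21.7. In replicate 2 the median was 34.9, where Thrb had 39.5. The part of this dense region in the number and strength of the Thrb peaks was not tested. The peak lists hold no copy number of the cell line, so the values were not adjusted for it.

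For the other receptors the 2 Mb on either side held between 0.9 peaks per 100 kb (Esr2, replicate 1) and 3 (Pgr, replicate 2). The Thra locus was denser than its surroundings in both replicates, at 3.12 against 1.15 and 3.90 against 1.93 per 100 kb. All 4 peaks of replicate 1 and 4 of the 5 of replicate 2 lay beyond the 3′ end of the gene. Among these were the peaks in Nr1d1 and those near the TSSs of Casc3 and Gm12359. The Pgr, Nr3c1, Rxra and Rxrg loci were sparser than their surroundings in both. Without Thrb, the receptor loci held 1.14 and 1.24 peaks per 100 kb, against 2.19 and 2.43 over the assembled chromosomes other than Y.

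**Figure D3:**
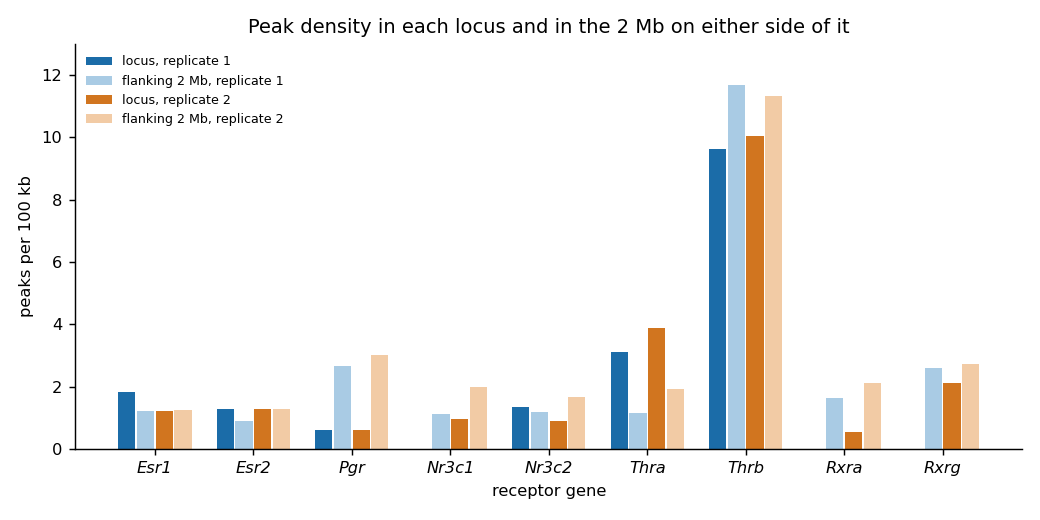
Peaks per 100 kb (vertical axis) in each receptor locus and in the 2 Mb on either side of it, for both replicates. Thrb had 9.63 and 10.0 per 100 kb beside surroundings of 11.7 and 11.3, and every other bar lies below 4.

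The retinoid X receptor genes had peaks in replicate 2 alone. Rxra (chromosome 2, 27676440 to 27762957, plus strand) held a single peak, 217 bp downstream of the start of the non-coding transcript Rxra-205, with 16 tags (9.15 to 26.0) and a −log10 q of 4.19. The start of Rxra-206, which encodes the receptor of 467 residues, was 60.9 kb from the nearest summit in replicate 1 and 63.2 kb in replicate 2. Rxrg (chromosome 1, 167598384 to 167639623, plus strand) held a promoter peak 58 bp downstream of the start of Rxrg-203, with 11 tags (5.49 to 19.7) and a −log10 q of 1.43, the lowest value in that list. It stood at the 0.128th percentile of the genes with a promoter peak. A peak in intron 9 held 20 tags and a distal one beyond the 3′ end 19 tags, with a −log10 q of 6.93 and 6.21. All these summits were single-copy.

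**Figure D4:**
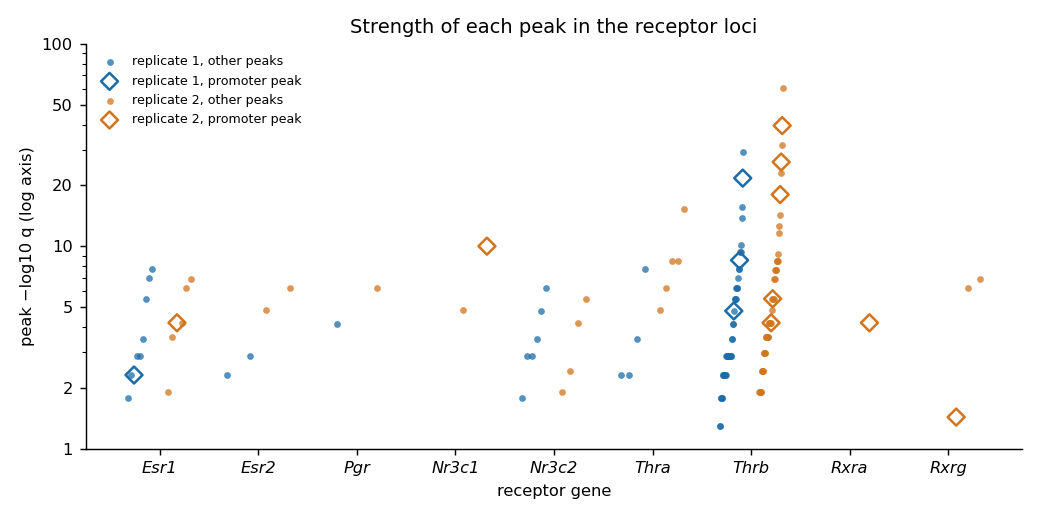
The −log10 q of every peak in the receptor loci (vertical axis, log scale), by gene and replicate, with diamonds for promoter peaks. The Thrb points reach 29.4 in replicate 1 and 60.5 in replicate 2, and no other locus passes 15.2.

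At peaks called in both replicates, the tags were compared between the libraries. The share of replicate 2 expected from the background levels was 53.7%. Of 43 pairs of overlapping peaks in the receptor loci, 28 had more tags in replicate 2 than this share, and of the 36210 pairs of the whole map 20730 did. None passed the threshold of 0.05 on the adjusted p of the exact binomial test, where 1.22% of all pairs passed. At an unadjusted p under 0.05 there was 1 of the 43, and 2818 of the 36210. This pair, 323.7 kb into Thrb, held 11 tags in replicate 1 and 29 in replicate 2 (exact p = 0.0174, adjusted p = 0.382). Its summits were 281 bp apart. A pair with few tags can pass such a test only where the difference is large, so smaller differences between the replicates were not detectable at this depth. The median distance between paired summits was 98 bp, and 22 of the 43 pairs had summits within 100 bp. For the others the test compared tags at positions further apart. A peak that overlapped more than 1 peak of the other replicate was counted in more than 1 pair.

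**Figure D5:**
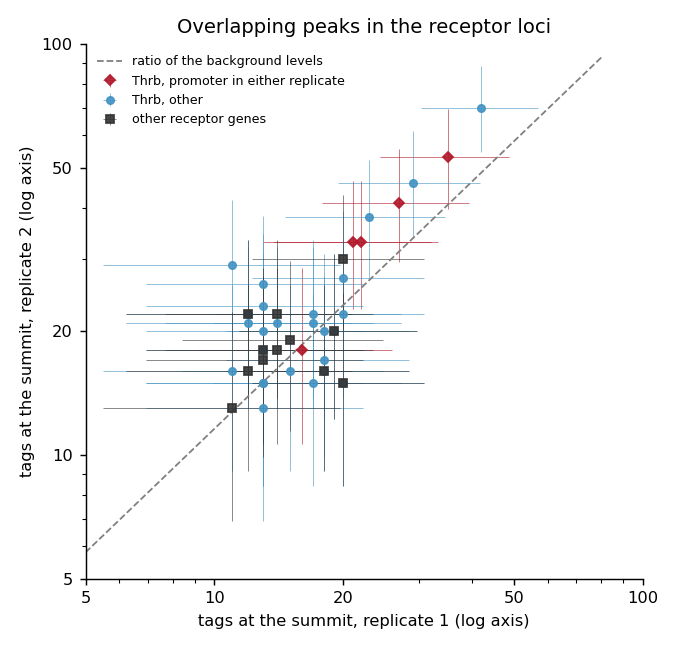
Tags at the summit in replicate 1 (horizontal axis, log scale) and replicate 2 (vertical axis, log scale) for the 43 pairs of overlapping peaks, with exact Poisson 95% intervals as thin lines and the ratio of the background levels as a dashed line. The highest points are Thrb peaks, up to 42 and 70 tags.

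Short sequence patterns were searched on both strands within 100 bp of each summit, and their shares are descriptions. The half-site AGGTCA, the core of most nuclear receptor sites outside the steroid receptors, was present in 14 of 68 windows of replicate 1 (20.6%) and 21 of 72 of replicate 2 (29.2%). It was present in 11.4% and 12.7% of all summit windows, and in 14.9% and 16.5% of the single-copy ones. Of the single-copy windows in the receptor loci, 12 of 47 and 19 of 54 held it. Thrb held 13 of the 14 and 18 of the 21. The longer SF1 pattern, which contains the half-site, was present in 4 windows of replicate 1 (5.88%) and 9 of replicate 2 (12.50%). Of all windows, 1.39% and 2.06% held it. Of the single-copy ones it was in 4 of 47 and 9 of 54 in the receptor loci, against 3.32% and 4.47% of all. Thrb held 3 of the 4 and 7 of the 9, and the summits of the other ones were at Esr2 in replicate 1 and at Esr1 and Thra in replicate 2. The steroid response element was found in 1 and 2 windows, all within the dense stretch of Thrb around the β2 start, against 0.329% and 0.315% of all windows. The window of replicate 1 and 1 of replicate 2 came from a shared pair of peaks with summits 37 bp apart, so they overlap. The GC box was in 5 windows of each replicate (7.35% and 6.94%), against 9.85% and 12.1% of all. Of the single-copy windows it was in 4 of 47 and 4 of 54 in the receptor loci, against 20.1% and 22.9% of all single-copy ones. The pentamer CCAAT was in 19 windows of each replicate (27.9% and 26.4%), against 34.0% and 33.0% of all. The PITX pattern was in 5 of each (7.35% and 6.94%), against 5.33% and 5.82% of all. No window held the estrogen response element, the direct repeats of the half-site with a spacing of 1 or 4 bases, the EGR1 pattern GCGTGGGCG or the cyclic AMP element TGACGTCA. Of all windows, 0.0138% and 0.0171% held the estrogen response element. The direct repeats were in 0.0190% and 0.0217% (spacing 1) and in 0.00345% and 0.00931% (spacing 4). The EGR1 pattern was in 0.124% and 0.171%, and the cyclic AMP element in 0.533% and 0.653%. With patterns this rare, their absence from 68 and 72 windows says little about the receptor loci.

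Promoter peaks at other genes of the pathway were counted in the same way. Of 40 other nuclear receptors, 11 had one in replicate 1 and 20 in replicate 2, and 11 in both (27.5%). The remaining retinoid X receptor gene, Rxrb, had a promoter peak in replicate 2 with 17 tags and a −log10 q of 4.84, and its nearest summit in replicate 1 was 31.2 kb away. All 49 nuclear receptors together had 13 genes with a promoter peak in both replicates (26.5%), against 30.8% of all protein-coding genes. Of 20 coactivators and corepressors, through which receptors act on transcription, 9 had one in both replicates (45.0%). Of 12 chaperones of steroid receptors and proteins that work with them, 7 did (58.3%). Of 13 genes of steroid and thyroid hormone metabolism and transport 1 did (7.69%), and of 20 genes commonly used as hormone targets 4 did (20%). The chaperone and hormone target lists share a gene that counted in both.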

How the data were processed

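ATAC-seq peaks of 2 replicate samples of LβT2 cells under 1 condition were analysed. Paired-end reads had been mapped by the authors to GRCm38 (mm10) with Bowtie2 and freed of duplicates. Peaks of each replicate were then called in MACS2, run with "-g dm" and reads extended to 200 bp. How these settings bear on the background level, and so on fold enrichment, q and the weakest peak called, was not tested. Versions and a threshold on q are not given in the sources used here, and no input control is named. Deposited for each peak were a score, which equals 10 times −log10 q without its decimals, the fold enrichment as a ratio to the background, −log10 p and −log10 q, and the start, end and summit.

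Tags at each summit were solved from the deposited fold and −log10 p, and recomputed −log10 p differed by at most 1.54e-04. Read totals were not analysed here, so depth was read from these tags. Genes and TSSs came from GENCODE vM21, with exon and intron numbers from the first-numbered transcript of each gene. Each summit was classed as promoter (within 1 kb of a TSS of the gene), exonic, intronic or distal. Copies are places in the genome, on either strand, with the same 50 bp. Overlapping peaks were tested with a two-sided exact binomial test, adjusted by the method of Benjamini and Hochberg over all pairs. The calculations were tested on simulated peaks with known answers. Calculations used scipy 1.17.1, pandas 2.3.3, numpy 2.4.6 and numba 0.67.0 under Python 3.11.15, and plots matplotlib 3.10.9.

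Named were all 9 receptors with their promoter peaks and highest intronic and distal peaks. Also named were Rxrb, gonadotrope genes from the check of the cell type, and genes whose promoter holds a peak of a receptor locus. Sequences of the highest promoter peak of Esr1 and Thrb were shown by rule and the others were chosen after their values were seen. No sequence of Nr3c1 was shown. A further gene that the rule names is not reported here. The receptors and gene lists were chosen with earlier results of these data known. Alternatives changed the promoter width, the TSSs used, the flank, the threshold on q, the copies allowed, the overlap, the expected share of tags and the replicates used. Leaving out Thrb was added after seeing the data.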

Additional observations from a re-analysis of the deposited data

How the results depend on the processing

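The number of receptors with a promoter peak in both replicates, 2, fell to 1 with a promoter width of 500 bp, with TSSs of protein-coding transcripts alone, with a −log10 q of at least 5 or of at least 10, and with single-copy summits alone. In each of these settings the remaining gene was Thrb. It was 3 with a width of 2 kb or when any part of the peak could lie in the promoter, where Pgr was added. With 1 replicate left out it ranged from 2 to 5. The mean number of peaks in the loci, 70, was 28 with a −log10 q of at least 5, 8 with at least 10 and 23 without Thrb. With 1 replicate left out it ranged from 68 to 72, and flanks of 10 or 100 kb and single-copy summits kept it within 1.5 times. The mean shared fraction, 58.7%, was 31.5% when peaks had to overlap by 50% of both and 31.5% when summits had to lie within 100 bp, and 50.2% without Thrb. The mean shared fraction moved by less than the main SD of 4.39 with single-copy summits and with a −log10 q of at least 5. At that threshold it was 54.7 ± 19.1% (SD, n = 2), a much wider spread between the replicates. No receptor pair differed between replicates under any of the 3 alternatives to the test, among 22 to 43 pairs, with 0 or 1 at an unadjusted p under 0.05. No paired analysis was possible because there is 1 group. The receptor peaks outside Thrb held 11 to 20 tags in replicate 1, where the weakest and the median peak held 10 and 14, and a missing peak does not show closed chromatin. An SD from 2 replicates is itself imprecise.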
